A study of Mus musculus with 62 samples.

Results

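The 10 transcripts described here encode ubiquitin ligases, or substrate receptors of ubiquitin ligases, that are known from muscle atrophy. They are Trim63, Trim32, Fbxo32, Fbxo30, Fbxo21, Fbxo31, Fbxo40, Klhl38, Nedd4 and Cblb, chosen by gene symbol as E3 ligases of muscle wasting, and they are 10 of the 47643 genes in the expression table. All 10 were in the table, all 10 passed the filter on low values, and all 10 were at 1 TPM or more in every mouse.

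An E3 ubiquitin ligase selects a protein and passes ubiquitin to it from an E2 enzyme, and a protein that carries a chain of ubiquitin can be broken down by the proteasome. In skeletal muscle this route removes sarcomere proteins, signaling proteins and factors of protein synthesis, and some of its ligases are transcribed more in fasting, denervation, glucocorticoid treatment, sepsis and cancer. Trim63 (MuRF1) and Fbxo32 (MAFbx) are the classic atrophy ligases, FoxO factors and the glucocorticoid receptor are known regulators of their genes, and the level of a ligase transcript does not measure how much protein is degraded.

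RNA was sequenced from the diaphragm, the main muscle of breathing, of 62 female mice that were 2 months old when injected, with 1 library per mouse. Cachectic mice (CAC) carried a patient-derived melanoma xenograft that causes wasting, non-cachectic mice (NCAC) carried another patient-derived melanoma xenograft that does not, and control mice (Con) had a mock injection; each group was sampled at 2, 4, 6 and 8 weeks after injection. That gives 12 conditions of 5 mice, except the cachectic mice of 8 weeks, of which there were 7. The sample labels name the strain C57BL6/J, but the series design and the study's methods name NCI Ath/nude mice, which lack thymus-derived T cells and so can host human tumors; they keep other immune cells, such as macrophages and neutrophils. The labels and the methods also name different TruSeq library kits, which can differ in whether strand is kept. The tumors differ between the tumor groups, so cachexia and the identity of the tumor cannot be told apart in the comparison of cachectic with non-cachectic mice.

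Values are the deposited TPM, transcript levels scaled to a fixed total, on the mm10 build, so each library sums to 1000000 and the level of a gene is divided by its length. The depth in reads is unknown, and neither the release of the annotation, nor whether strand was used, nor what was done with multi-mapping reads is stated. Differences are given as log2 fold changes of log2(TPM + 1), from limma fitted to all 62 mice with a mean for each condition. The test covered 13578 genes, and a gene was called at an adjusted p under 0.05 in either direction; intervals are 95% confidence intervals. Dunn's test on ranks was run beside limma. The study used it for its own comparisons, with cutoffs on p and on fold and no stated adjustment over genes. Here p values were adjusted over all genes, and a Kruskal-Wallis p under 0.05 was also required. At that threshold Dunn's test called 0 ligases in each comparison. In data simulated for cachectic against control mice of 8 weeks it called 3 of 100 genes changed by 1 on the log2 scale. It called 1 of 100 changed by 2, while limma called 76 and 97. The simulation changed only these genes among 13578. Its noise was normal, independent between genes and of equal spread in all conditions, which the measured data need not be. Its counts therefore do not show how either test performs on the measured data. Other comparisons were not simulated. In the measured data of cachectic against control mice at 8 weeks Dunn's test called 7.47% of all genes and limma 14.8%. Comparisons at the same week share their mice, so they are not independent of each other.

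The label of the tissue was checked against 10 transcripts of muscle fibers. All 10 were measured in each condition, their sum lay between 37070 and 83340 TPM in the 62 mice, and Acta1, skeletal actin, was the most abundant.

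Libraries that stand apart bear on the ligases, so they come before the results. In 4 libraries (cachectic mice 3 and 4 and non-cachectic mouse 5 of 2 weeks, and cachectic mouse 3 of 8 weeks) between 15069 and 16389 genes were above 0, against 17909 to 19057 in the other 58. Mitochondrially encoded transcripts held 54.4% to 61.5% of the TPM in these 4, and 32.5% to 50.1% in the other 58. In cachectic mouse 3 of 8 weeks all 10 ligases were at the lowest level of the group, and 9 of 10 were lower than in every other mouse of the 62. Its 10 ligases summed to 122 TPM, while the other 6 cachectic mice of 8 weeks held between 684 and 2811 TPM. That library also had the highest sum of adipocyte transcripts in its group, 4436 TPM. In another 4 libraries (control mice 2, 4 and 5 of 2 weeks and cachectic mouse 5 of 6 weeks) liver transcripts summed to between 5198 and 24010 TPM, against a median of 34.3 and a highest sum of 3374 TPM in the other 58. Counts of called genes in cachectic mice are given below with all mice and without the 4 libraries that list the fewest genes.

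In the 15 control mice of 4, 6 and 8 weeks the ligases lay in a high and a low range of TPM. Fbxo40 (126 ± 17.8 TPM, mean and SD), Fbxo32 (123 ± 22.9), Trim63 (111 ± 30.9), Nedd4 (101 ± 7.54), Fbxo31 (82.3 ± 10.5) and Klhl38 (60.7 ± 13.0) were the abundant ones. Fbxo30 (10.1 ± 2.44 TPM), Fbxo21 (8.73 ± 0.63), Cblb (8.52 ± 1.68) and Trim32 (6.81 ± 0.56) were far lower. Between neighbours in this order, the ranges of mean ± SD overlapped except between Nedd4 and Fbxo31 and between Klhl38 and Fbxo30. The mice varied least for Fbxo21 and Nedd4, with coefficients of variation of 7.19% and 7.46%, and most for Trim63, with 28.0%.

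**Figure D1:**
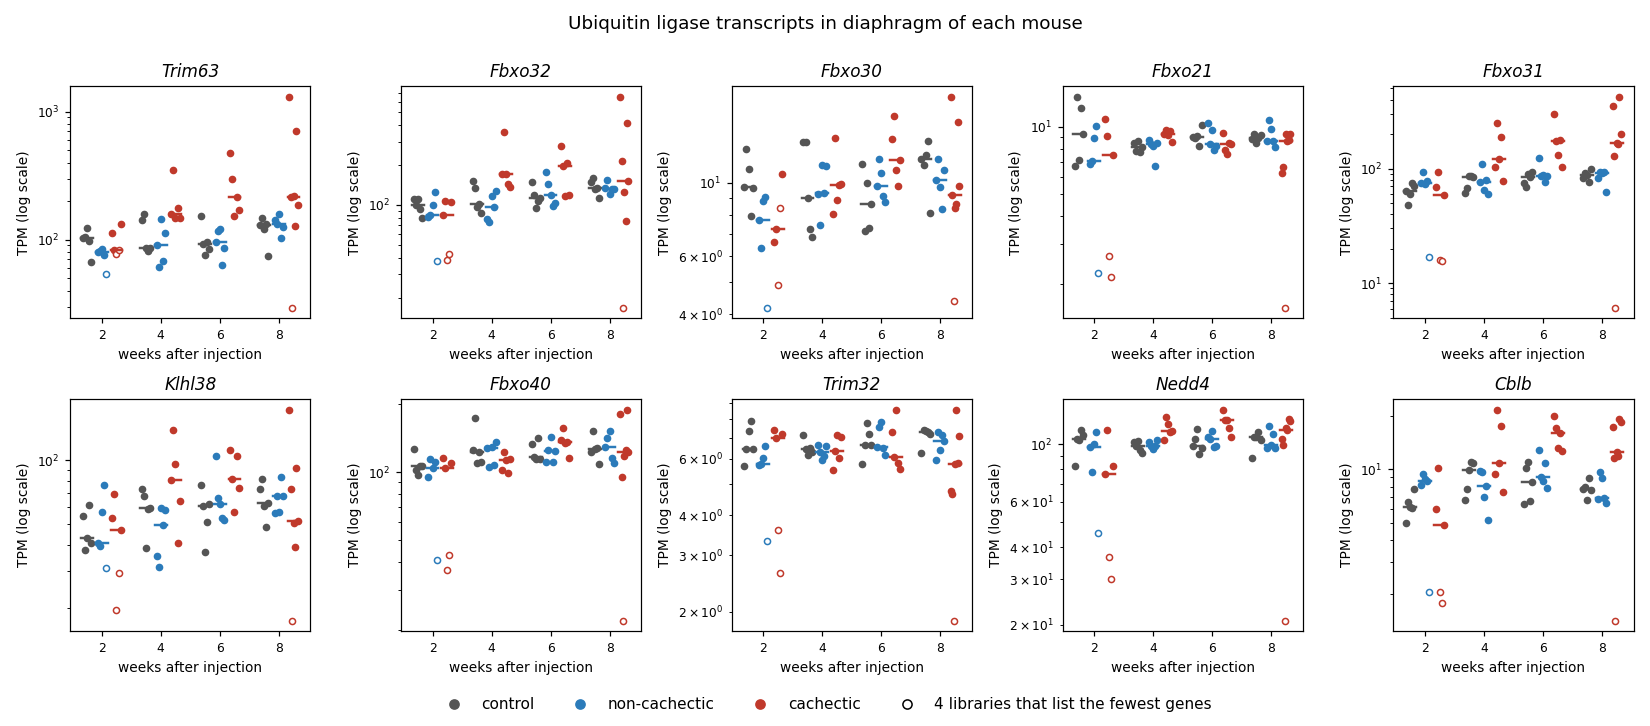
TPM of each of the 10 ligases (log scale) in each of the 62 mice, by week and group; 1 point is 1 mouse, lines are group medians, and open points are the 4 libraries that list the fewest genes. Several panels have cachectic mice above both other groups at 6 and 8 weeks, and for Trim63, Fbxo31 and Cblb most cachectic mice are so at both weeks. Cachectic mouse 3 of 8 weeks is the lowest of all mice in 9 of the 10 panels.

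Trim63 encodes MuRF1, a RING-finger ligase of the sarcomere that is known to mark myosin heavy chain and other thick filament proteins. At 2 weeks Trim63 was 102, 104, 124, 97.3 and 67.1 TPM in the 5 control mice, 79.98, 81.4, 84.5, 76.3 and 54.1 in the non-cachectic mice and 113, 82.5, 77.2, 83.4 and 133 in the cachectic mice. These groups overlapped. At 4 weeks its level was 141, 158, 85.3, 81.4 and 85.6 TPM in control, 91.3, 61.4, 146, 67.9 and 112 in non-cachectic and 158, 351, 149, 176 and 148 in cachectic mice. All 5 cachectic mice of 4 weeks were above all non-cachectic mice, with mouse 2 at about a doubling of the rest of its group, but 3 of the 5 lay within the control range.

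By 6 weeks the same transcript was at 154, 92.8, 75.5, 95.1 and 84.4 TPM in control mice, at 95.1, 117, 121, 63.5 and 85.7 in non-cachectic mice and at 476, 299.9, 152, 214 and 170.3 in cachectic mice. Here 4 of 5 cachectic mice were above the highest control, and all 5 were above the highest non-cachectic mouse. At 8 weeks controls held 129, 149, 120.4, 134 and 74.5 TPM and non-cachectic mice 143, 133, 159, 103 and 125, while the 7 cachectic mice ran from 29.4 over a median of 214 to 1303 TPM. Mice 1 (1303 TPM) and 6 (709.5) were far above the rest, 5 of 7 were above every control, mouse 5 lay among the controls, and mouse 3, a library that stands apart, was below them.

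Across conditions the mean level of Trim63 was highest in the cachectic mice of 8 weeks (398 ± 454 TPM, mean and SD), 6 weeks (262 ± 133) and 4 weeks (196 ± 87.4). The other 9 conditions lay between 75.3 ± 12.2 TPM in non-cachectic mice of 2 weeks and 132 ± 20.7 in those of 8 weeks. Every neighbour in the order of the 12 means overlapped the next within its SD.

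The log2 fold change of Trim63 between cachectic and control mice was 1.29 at 6 weeks (interval 0.40 to 2.19, limma adjusted p = 0.0665) and 0.94 at 8 weeks (interval 0.11 to 1.76, adjusted p = 0.124), so it was not called with all mice. It was called at both weeks without the 4 libraries that list the fewest genes: Trim63 rose by 1.29 at 6 weeks (adjusted p = 0.00539) and by 1.42 at 8 weeks (adjusted p = 0.00103). Leaving out only cachectic mouse 3 of 8 weeks gave the same 1.42 with an adjusted p of 0.00149. Over all alternatives, the adjusted p of this difference ran from 4.74e-05 to 0.264 at 6 weeks and from 0.00103 to 0.634 at 8 weeks. Against non-cachectic mice Trim63 differed by 1.34 at 6 weeks (adjusted p = 0.061) and 0.79 at 8 weeks (adjusted p = 0.226) with all mice. Both differences passed without the 4 libraries, at 1.34 (adjusted p = 0.00447; 0.000167 to 0.247 over the alternatives) and 1.27 (adjusted p = 0.00327; 0.00327 to 0.736). At 6 weeks the second comparison was also called without cachectic mouse 3 of 6 weeks (1.51, adjusted p = 0.0474).

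Trim32 encodes another RING-finger ligase, which acts on desmin and thin filament proteins and is mutated in a limb-girdle muscular dystrophy. It had the lowest pooled mean in controls of 4, 6 and 8 weeks (in those of 2 weeks Cblb was lower), and its condition means lay between 5.50 ± 1.25 TPM in non-cachectic mice of 2 weeks and 7.09 ± 0.465 in controls of 8 weeks. At 8 weeks Trim32 was 6.28, 7.41, 7.34, 7.28 and 7.16 TPM in control mice and 5.96, 7.30, 6.42, 7.15 and 6.80 in non-cachectic mice. The cachectic mice of that week ran from 1.88 over 5.79 to 8.50 TPM, with 5 of 7 below every control and mouse 5 above every control. Mouse 7 lay within the control range. Its log2 fold change against controls was -0.39 (interval -0.73 to -0.06, limma adjusted p = 0.109), which was not called. Trim32 was called lower at 8 weeks when cachectic mouse 5 was left out (-0.50, adjusted p = 0.0285), and without the 4 libraries it was -0.21 (adjusted p = 0.0687); over the alternatives the adjusted p ran from 0.00281 to 0.524. It was also called lower against controls with median-ratio scaling, quantile normalization and without mitochondrial genes in the total, and the same 3 alternatives called it lower against non-cachectic mice (adjusted p from 0.013 to 0.986 over all alternatives). Astn2, a protein-coding gene on the opposite strand with a mean of 1.69 TPM, overlaps Trim32, whose mean was 6.37 TPM, so if strand was not used some reads cannot be told apart between them.

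Fbxo32 encodes MAFbx, the F-box protein that gives an SCF ligase its substrates and is known to act on MyoD and on a subunit of translation initiation. At 2 weeks Fbxo32 was 110.3, 99.6, 111, 92.8 and 79.2 TPM in control, 81.3, 83.8, 100.5, 126 and 37.7 in non-cachectic and 83.5, 107, 38.5, 42.9 and 106 in cachectic mice. The low values there, under 50 TPM, are the 3 libraries of that week that list few genes. At 4 weeks its level was 152, 134, 97.3, 102 and 86.96 TPM in control, 78.7, 74.8, 117, 95.8 and 126 in non-cachectic and 172, 353, 171, 145 and 137 in cachectic mice. Mouse 2 of the cachectic group was the highest, as for Trim63; all 5 cachectic mice were above all non-cachectic mice, and 3 of 5 were above all controls.

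At 6 weeks controls held 148, 119, 95.1, 107 and 113 TPM of Fbxo32, non-cachectic mice 177, 143, 119, 99.02 and 104 and cachectic mice 278, 198, 117, 209 and 119. In this week 3 of 5 cachectic mice were above every mouse of the other groups and 2 were within them. At 8 weeks the levels were 148, 159, 131, 135 and 114 TPM in controls and 134, 154, 122, 133 and 132 in non-cachectic mice, and the cachectic mice ran from 16.8 over 151 to 655 TPM. Mice 1, 6 and 2 (655, 416 and 213 TPM) were above every control, mice 3 and 5 were below every control, and the other 2 lay within the control range.

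The order of the Fbxo32 means began with the cachectic mice of 8 weeks (236 ± 224 TPM), 4 weeks (195 ± 89.3) and 6 weeks (184 ± 67.9), and ended with those of 2 weeks (75.6 ± 33.2), with every neighbour overlapping the next within its SD. Against controls, the log2 fold change of Fbxo32 was 0.70 at 4 weeks, 0.59 at 6 weeks (interval -0.29 to 1.47, limma adjusted p = 0.482) and 0.10 at 8 weeks (interval -0.71 to 0.92, adjusted p = 0.91). None of these was called with all mice, which does not show that the groups did not differ. Fbxo32 was called higher with array quality weights at 4 weeks and at 6 weeks (adjusted p from 0.0122 to 0.74 over the alternatives at 6 weeks). The 8-week value was, without the 4 libraries, 0.61 (interval 0.03 to 1.19, adjusted p = 0.0981; 0.0981 to 1.0 over the alternatives). The 8-week value turned negative without cachectic mouse 1 (-0.26) or without mouse 6 (-0.15), while without mouse 3 it kept its direction. With no library left out it was also negative with a block for the replicate number (-0.208). It was -0.0019 without mitochondrial genes in the total. The direction therefore depends on mice 1 and 6 and on the processing.

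**Figure D2:**
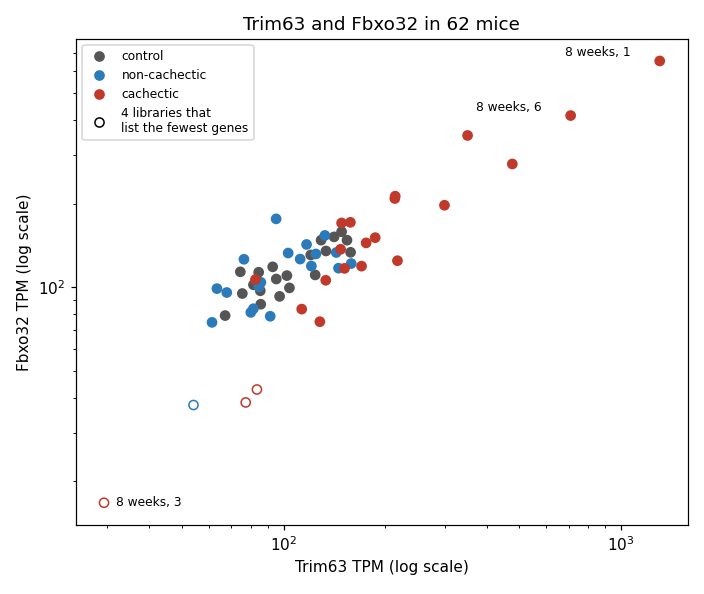
Trim63 against Fbxo32 in each of the 62 mice, both in TPM on log axes; colors are the groups and open points the 4 libraries that list the fewest genes. Cachectic mice 1 and 6 of 8 weeks are at the upper end and mouse 3 of 8 weeks at the lower end.

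Trim63 and Fbxo32 varied together among the 7 cachectic mice of 8 weeks. On the log2(TPM + 1) scale Pearson's r was 0.98 (exact permutation p = 0.00159, two-sided, n = 7) and Spearman's rho was 0.893 (exact permutation p = 0.0123); it was the only relation between members that was tested. Without mice 1 and 3, which lie farthest from the median of Trim63 on that scale, r was 0.925 over the other 5. The share of mitochondrial transcripts was highest in mouse 3 of these, at 57.1%, and its part in the relation was not tested. Over all 62 mice r was 0.863, and over the 58 without the libraries that list few genes it was 0.893, both given as descriptions across conditions.

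Fbxo31 encodes an F-box protein of SCF ligases that is known from the cell cycle and the response to DNA damage, where it brings cyclin D to the ligase. At 2 weeks it was 63.9, 48.4, 59.4, 74.8 and 70.6 TPM in control, 74.2, 92.8, 72.7, 77.2 and 16.97 in non-cachectic and 68.6, 92.8, 16.00, 15.8 and 58.6 in cachectic mice, and its values under 20 TPM came from the libraries that list few genes. At 4 weeks Fbxo31 was 60.7, 68.2, 86.9, 86.97 and 84.2 TPM in control, 75.8, 109, 64.7, 80.3 and 59.9 in non-cachectic and 102, 251, 121, 189.9 and 78.1 in cachectic mice. The cachectic mice of 4 weeks were spread widely, with 4 of 5 above every control and mouse 5 among them.

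At 6 weeks controls held 74.9, 68.7, 89.04, 84.8 and 93.3 TPM of Fbxo31, non-cachectic mice 123, 86.9, 87.7, 76.9 and 86.1 and cachectic mice 299, 176, 133, 178 and 103. All 5 cachectic mice were above all 5 controls, and mouse 1 of the non-cachectic group overlapped the lowest of them. At 8 weeks the levels were 82.7, 91.7, 87.2, 76.9 and 98.6 TPM in control and 82.95, 92.96, 90.8, 92.8 and 61.95 in non-cachectic mice, against 6.11, 166 and 422 as the lowest, median and highest of the cachectic mice. Of these 7, 6 were above every control and every non-cachectic mouse, and mouse 3 was below all of them.

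The 3 highest means of Fbxo31 were those of cachectic mice at 8 weeks (206 ± 139 TPM), 6 weeks (178 ± 74.5) and 4 weeks (149 ± 70.9), and the lowest was in cachectic mice of 2 weeks (50.4 ± 33.8); neighbours overlapped within their SD. With all mice its log2 fold change against controls was 1.02 at 6 weeks (interval -0.05 to 2.08, limma adjusted p = 0.278) and 0.60 at 8 weeks (interval -0.38 to 1.59, adjusted p = 0.468), neither called. Fbxo31 rose without the 4 libraries, by 1.02 at 6 weeks (adjusted p = 0.00153; 8.76e-06 to 0.563 over the alternatives) and by 1.31 at 8 weeks (adjusted p = 1.73e-05; 1.71e-06 to 0.847). Leaving out cachectic mouse 3 of 8 weeks alone gave 1.31 with an adjusted p of 0.00364. Limma with array quality weights also called Fbxo31 at 8 weeks. That fit keeps mouse 3 but weights each library by its quality, so it is not independent of leaving mouse 3 out. Against non-cachectic mice the rise without the 4 libraries was 0.87 at 6 weeks (adjusted p = 0.00671; 0.000315 to 0.713 over the alternatives) and 1.37 at 8 weeks (adjusted p = 9.64e-06; 7.97e-07 to 0.815). A gene on the opposite strand, Gm20388, overlaps Fbxo31 and had a mean of 25.7 TPM, so if strand was not used some reads cannot be told apart between them.

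Fbxo30 encodes MUSA1, an F-box protein known to be induced in denervated muscle and held down by BMP signaling. Its condition means lay between 7.22 ± 2.00 TPM in non-cachectic mice of 2 weeks and 12.4 ± 2.38 in cachectic mice of 6 weeks. At 6 weeks Fbxo30 was 11.3, 7.12, 10.01, 7.32 and 8.63 TPM in control and 13.6, 15.9, 10.96, 9.77 and 11.8 in cachectic mice; 3 of 5 cachectic mice were above every control. At 8 weeks it was 11.8, 11.3, 12.2, 13.3 and 8.09 TPM in controls and ran from 4.39 over 9.17 to 18.2 in cachectic mice, with mice 1 and 6 above every control, mouse 3 below and the other 4 among them. Its log2 fold change against controls was 0.44 at 6 weeks (interval 0.02 to 0.86, adjusted p = 0.226) and -0.18 at 8 weeks (interval -0.57 to 0.21, adjusted p = 0.596); leaving out cachectic mouse 3 of 8 weeks brought the latter to -0.02 (adjusted p = 0.973). Array quality weights, and a fit to only the groups compared, called Fbxo30 higher at 6 weeks (0.00364 to 0.528 over the alternatives). The change of this difference from 6 to 8 weeks was -0.62 (interval -1.19 to -0.05, adjusted p = 0.623) with all mice and -0.45 (interval -0.94 to 0.03) without the 4 libraries, so a difference between the weeks was not shown.

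Fbxo21 encodes SMART, an F-box protein that is known to be needed for atrophy after denervation. Its condition means ran from 6.45 ± 3.89 TPM in cachectic mice of 2 weeks to 9.78 ± 3.05 in controls of 2 weeks. At 2 weeks the values were 6.69, 13.6, 7.12, 12.2 and 9.28 TPM in control, 6.85, 7.02, 8.93, 10.1 and 2.24 in non-cachectic and 10.8, 9.12, 2.65, 2.14 and 7.52 in cachectic mice. The controls of that week were spread over a doubling, mice 3 and 4 of the cachectic group were below every control, and the other 3 cachectic mice lay within the control range. At 4 weeks Fbxo21 was above every control and every non-cachectic mouse in 4 of 5 cachectic mice, and mouse 5 lay within both ranges. It was not called there (0.17 against controls). At 8 weeks it was 8.87, 9.28, 8.51, 8.93 and 9.18 TPM in controls and 1.56, 8.70 and 9.30 at the lowest, median and highest of the cachectic mice, of which 3 of 7 were below every control. That difference was -0.40 (interval -0.89 to 0.10, adjusted p = 0.318) and was not called; with each library left out in turn it ran from -0.47 to -0.14, the latter without cachectic mouse 3.

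Fbxo40 encodes a muscle-specific F-box protein known to mark the insulin receptor substrate for degradation. Its pooled control mean was the highest of the set, although it exceeded Fbxo32 in only 7 of the 15 mice and was below it in controls of 8 weeks, and its condition means ran from 82.1 ± 38.7 TPM in cachectic mice of 2 weeks to 136 ± 14.6 in cachectic mice of 6 weeks. At 8 weeks Fbxo40 was 122, 153, 126, 127 and 108 TPM in controls, 129, 141, 152, 115 and 109 in non-cachectic mice and 22.03, 123 and 189 at the lowest, median and highest of the cachectic mice. Again mice 1 and 6 were the highest, 2 of 7 were below every control, and the groups overlapped. The log2 fold change of Fbxo40 was 0.14 at 6 weeks (interval -0.46 to 0.73) and -0.28 at 8 weeks (interval -0.83 to 0.27); without cachectic mouse 3 of 8 weeks the latter was 0.09, so it gives no direction.

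Klhl38 encodes a kelch-like protein, a family that serves as substrate receptors of cullin-RING ligases. Its means were highest in cachectic mice of 6 weeks (85.7 ± 22.3 TPM) and 4 weeks (84.2 ± 36.99) and lowest in cachectic mice of 2 weeks (43.6 ± 19.5). At 4 weeks Klhl38 was 72.99, 67.5, 38.7, 58.7 and 59.4 TPM in control, 35.4, 31.4, 59.7, 49.4 and 58.2 in non-cachectic and 80.7, 139, 96.1, 40.7 and 64.1 in cachectic mice. Of the cachectic mice 4 of 5 were above every non-cachectic mouse and mouse 2 was again the highest. At 8 weeks controls held 73.4, 81.8, 60.9, 48.3 and 62.5 TPM and cachectic mice ran from 17.5 over 51.8 to 172, 2 of 7 above and 2 of 7 below every control. Its log2 fold change against non-cachectic mice was 0.76 at 4 weeks (interval 0.09 to 1.44, adjusted p = 0.856), and against controls 0.57 at 6 weeks (adjusted p = 0.348) and -0.15 at 8 weeks (adjusted p = 0.805; 0.12 without cachectic mouse 3).

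Fbxo32 and Klhl38 are neighbours in the genome. Both lie on the minus strand of chromosome 15 of GRCm38, Fbxo32 at chr15:58175879-58214932 and Klhl38 at chr15:58314573-58324169, with 99640 bases between them; 0 annotated genes lie wholly inside that gap, but Gm15943, on the opposite strand and at a mean of 0.219 TPM, overlaps both genes and so runs across it. Over the 62 mice their log2(TPM + 1) had a Pearson r of 0.894, the highest value of Klhl38 with any other member; the libraries and conditions are shared, so it is a description only.

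Nedd4 encodes a HECT ligase, which carries ubiquitin on its own cysteine before passing it on, and it is known to act on membrane proteins and on Notch signaling in unloaded muscle. At 2 weeks Nedd4 was 82.4, 105, 104, 114 and 109 TPM in control, 97.9, 77.98, 99.9, 112 and 45.4 in non-cachectic and 76.8, 113, 36.7, 30.2 and 82.01 in cachectic mice. Mice 3 and 4 of the cachectic group were far below the rest. At 4 weeks its level was 102, 98.1, 103, 95.3 and 92.1 TPM in control, 102, 98.3, 96.2, 98.6 and 104 in non-cachectic and 104, 127, 120.0, 111 and 112 in cachectic mice, and all 5 cachectic mice were above all mice of both other groups. At 6 weeks it was 98.7, 105, 115, 91.3 and 97.1 TPM in control, 107, 105, 112, 97.3 and 98.2 in non-cachectic and 136, 124, 124, 116 and 106 in cachectic mice, with 4 of 5 cachectic mice above every other mouse of that week.

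At 8 weeks Nedd4 was 88.2, 107, 107, 112 and 104 TPM in controls and 20.8, 113 and 125 at the lowest, median and highest of the cachectic mice. The highest means of Nedd4 were in cachectic mice of 6 weeks (121 ± 10.9 TPM) and 4 weeks (115 ± 8.82). Its difference from controls was 0.22 at 4 weeks (interval -0.31 to 0.75, adjusted p = 1) and 0.26 at 6 weeks (interval -0.27 to 0.79, limma adjusted p = 0.639) with all mice. Nedd4 was called at 6 weeks without the 4 libraries (adjusted p = 0.0236; 0.000878 to 0.897 over the alternatives), although the difference relative to the median of all genes was then only 0.09. Over the alternatives the fold of Nedd4 against controls at 6 weeks ran from 0.06 to 0.30, and the highest adjusted p came without mitochondrial genes in the total, when it was 0.09.

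Cblb encodes Cbl-b, a RING-finger ligase known to mark the insulin receptor substrate in unloaded muscle and to restrain T cell activation. At 2 weeks Cblb was 4.98, 6.52, 6.16, 6.08 and 7.78 TPM in control, 8.12, 9.46, 8.82, 8.59 and 2.04 in non-cachectic and 5.98, 10.1, 2.04, 1.78 and 4.84 in cachectic mice, and its lowest values were in the libraries that list few genes. At 4 weeks it was 6.71, 7.75, 9.90, 10.96 and 10.8 TPM in control, 9.78, 9.69, 7.03, 8.07 and 5.16 in non-cachectic and 9.44, 21.6, 10.9, 17.6 and 7.42 in cachectic mice. Cachectic mice 2 and 4 were above every control and the other 3 were among the controls.

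At 6 weeks Cblb stood at 6.37, 10.2, 10.99, 6.64 and 8.50 TPM in control, 12.9, 9.03, 8.56, 10.9 and 7.89 in non-cachectic and 19.9, 17.1, 13.2, 16.1 and 12.7 in cachectic mice. All 5 cachectic mice were above all controls, and 4 of 5 were above all non-cachectic mice. At 8 weeks the values were 7.73, 7.94, 6.68, 8.94 and 7.65 TPM in control and 6.77, 9.67, 8.92, 6.86 and 6.47 in non-cachectic mice, and 1.41, 12.5 and 19.1 at the lowest, median and highest of the cachectic mice. As for Fbxo31, 6 of 7 were above every control and every non-cachectic mouse, and mouse 3 was below all of them.

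Mean levels of Cblb were highest in cachectic mice of 6 weeks (15.8 ± 2.97 TPM), 4 weeks (13.4 ± 5.97) and 8 weeks (13.2 ± 6.08), and lowest in cachectic mice of 2 weeks (4.95 ± 3.40). The log2 fold change of Cblb against controls was 0.83 at 6 weeks (interval 0.14 to 1.52, limma adjusted p = 0.146) and 0.46 at 8 weeks (interval -0.17 to 1.10, adjusted p = 0.373) with all mice, neither called. Cblb rose without the 4 libraries, by 0.83 at 6 weeks (adjusted p = 0.00121; 5.48e-05 to 0.338 over the alternatives) and by 0.85 at 8 weeks (adjusted p = 0.000296; 3.06e-05 to 0.728). With cachectic mouse 3 of 8 weeks alone left out, the 8-week rise was 0.85 (adjusted p = 0.0126). Against non-cachectic mice the rise without the 4 libraries was 0.63 at 6 weeks (adjusted p = 0.0121; 0.00271 to 0.601 over the alternatives) and 0.87 at 8 weeks (adjusted p = 0.00024; 1.17e-05 to 0.746).

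**Figure D3:**
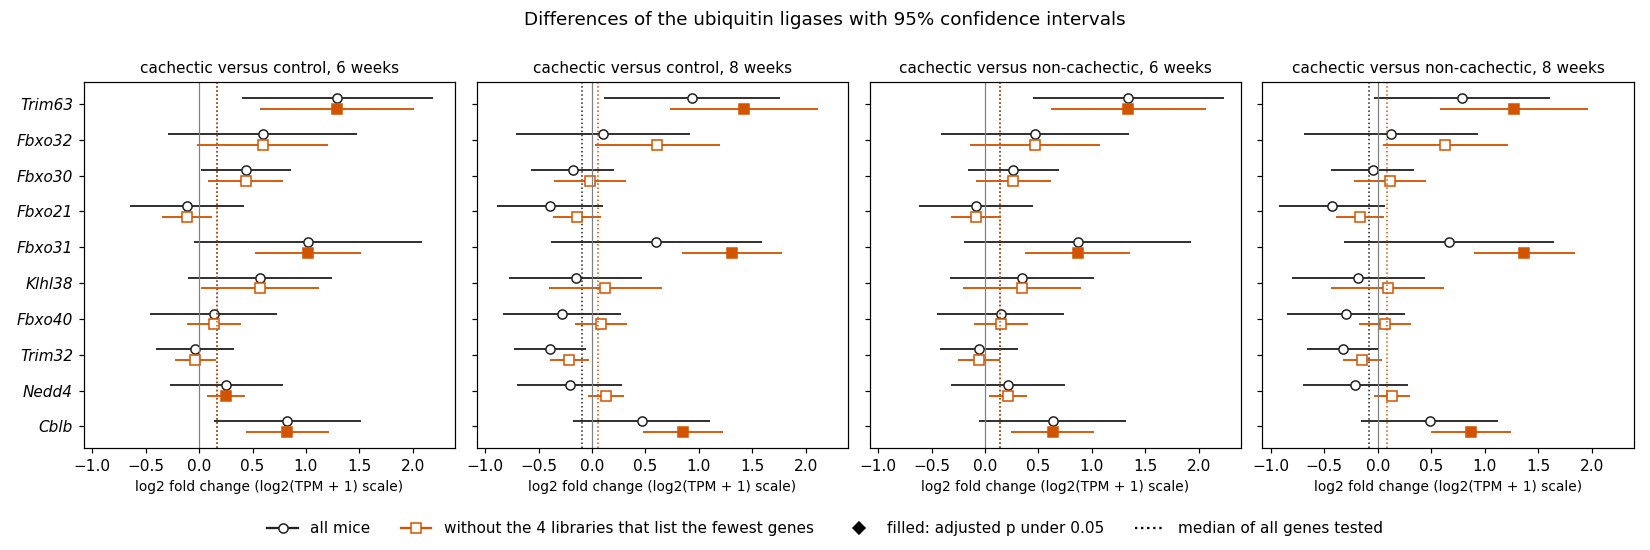
Log2 fold changes of the 10 ligases with 95% confidence intervals for cachectic against control and against non-cachectic mice at 6 and 8 weeks, with all mice and without the 4 libraries that list the fewest genes; filled marks have an adjusted p under 0.05 and dotted lines are the medians of all genes tested. No mark is filled with all mice; without the 4 libraries Trim63, Fbxo31 and Cblb are filled in each panel, and Nedd4 against controls at 6 weeks.

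The comparison of cachectic with control mice asks how the diaphragm differs as wasting develops. At 2 weeks limma called 2 of the 10 ligases, both lower: Nedd4 fell by 0.75 (SE 0.26, adjusted p = 0.0329) and Fbxo21 fell by 0.68 (SE 0.27, adjusted p = 0.0485). In the same comparison 29.3% of all genes tested were called, and the median of all genes was -0.42, so relative to it Nedd4 was -0.33 and Fbxo21 -0.26. Both calls were lost without the 4 libraries that list the fewest genes, when 0% of all genes were called and Nedd4 was -0.19 (adjusted p = 0.384) and Fbxo21 -0.05 (adjusted p = 0.917). The count was also 0 without the 4 libraries with liver transcripts, when 0% of all genes were called. It was 4 without cachectic mouse 1 (beside 58.4% of all genes) and 3 without cachectic mouse 5 of 2 weeks (beside 46.0%). It was 0 without cachectic mouse 3 or 4, and without control mouse 2, 4 or 5, of 2 weeks. The share of all genes is not given for those last fits, so their counts of 0 are not compared with other genes. Liver transcripts were high in those same 3 control libraries; their part in the result was not tested.

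At 4 weeks limma called 0 of the 10 ligases against controls, with 0 at an unadjusted p under 0.05 (5.36% of all genes), and 0.0221% of all genes tested. Dunn's test called 0 ligases and 0% of all genes, with 4 ligases (Fbxo21, Fbxo31, Nedd4 and Fbxo32) and 13.2% of all genes at an unadjusted p under 0.05. In 1 ligase, Nedd4, all cachectic mice were above all controls, which held for 4.91% of the genes tested. The median log2 fold change of the 10 was 0.32 and that of all genes 0.04. Leaving out the 4 libraries, limma called 0 ligases and 1.85% of all genes, with 5 ligases (Trim63, Fbxo31, Nedd4, Fbxo32 and Cblb) and 16.3% of all genes at an unadjusted p under 0.05, and limma with array quality weights called 3 (Fbxo32, Fbxo31 and Nedd4) beside 7.87% of all genes.

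At 6 weeks 0 ligases were called against controls with all mice, while 6.79% of all genes tested were. Trim63, Fbxo30 and Cblb, 3 of the 10, were at an unadjusted p under 0.05 in limma, as 20.1% of all genes were. Dunn's test called 0 ligases and 0% of all genes, with 5 ligases and 32.6% of all genes at an unadjusted p under 0.05. Fbxo31 and Cblb, 2 of the 10, lay wholly above the controls, as 15.9% of all genes did. The median of all genes was 0.17 at this week, and relative to it Trim63 was 1.12, Fbxo31 0.85 and Cblb 0.66. Without the 4 libraries 4 ligases were called (Trim63, Fbxo31, Nedd4 and Cblb, all higher) beside 31.2% of all genes, so the count does not set the ligases apart from other genes. None of those 4 libraries is in the 6-week groups; the folds there were the same, and the estimate of the spread was smaller. Mitochondrially encoded transcripts held 34.3%, 39.8% and 44.9% of the TPM at the lowest, median and highest of the cachectic mice, each below every control (median 46.2%), and with a fixed total a smaller share of them raises the TPM of the other genes. With all mice and mitochondrial genes taken out of the total the fold against controls was 1.13 for Trim63 (adjusted p = 0.105), 0.85 for Fbxo31 (adjusted p = 0.378), 0.70 for Cblb (adjusted p = 0.243) and 0.09 for Nedd4 (adjusted p = 0.897), when the median of all genes was 0.03.

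At 8 weeks limma called 0 of 10 against controls and 14.8% of all genes tested. At an unadjusted p under 0.05 there were 2, Trim63 higher and Trim32 lower, beside 27.0% of all genes. Dunn's test called 0 ligases and 7.47% of all genes, with 2 ligases (Trim32 lower, Cblb higher) and 24.0% of all genes at an unadjusted p under 0.05. Without the 4 libraries 3 ligases were called, Trim63, Fbxo31 and Cblb, all higher, beside 34.6% of all genes. The same 3 were called without cachectic mouse 3 of 8 weeks alone, beside 18.7% of all genes, and 1, Trim32, without cachectic mouse 5, beside 17.7%. With mouse 3 left out, Fbxo31 and Cblb lay wholly above the controls, as 9.51% of all genes tested did. The median of the 10 ligases was -0.17 with all mice and 0.13 without the 4 libraries, when those of all genes were -0.09 and 0.06. Mitochondrial transcripts held 32.5% to 41.6% of the TPM in the cachectic mice other than mouse 3 and 40.9% to 49.3% in controls. Cachectic mouse 1, which had the highest Trim63, was at 41.6%, within the control range. The link of this share to the ligase levels was not tested across mice. With all mice and mitochondrial genes out of the total, Trim63 was 0.84 (adjusted p = 0.101), Fbxo31 0.49 (adjusted p = 0.43) and Cblb 0.36 (adjusted p = 0.395), when the median of all genes was -0.20; leaving out both those genes and the 4 libraries was not tested.

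Non-cachectic mice also bear a tumor, but a different one. The comparison with them therefore cannot tell cachexia apart from the identity of the tumor. At 2 weeks limma called 0 ligases and 0% of all genes, with 0 ligases at an unadjusted p under 0.05 (12.6% of all genes), and Dunn's test gave 0 ligases at both thresholds, with 0% and 3.54% of all genes; the counts called were 0 and 0% without the 4 libraries too. At 4 weeks 0 ligases and 0.0295% of all genes were called; Trim63, Fbxo32 and Klhl38, 3 of the 10, were at an unadjusted p under 0.05 in limma (5.13% of all genes were) and 6 in Dunn's test (12.2% of all genes were), which called 0 ligases and 0% of all genes. Trim63, Fbxo32 and Nedd4 were wholly above the non-cachectic mice at that week, as 5.52% of all genes were. There, 0 ligases and 2.23% of all genes were called without the 4 libraries, with 6 ligases and 17.3% of all genes at an unadjusted p under 0.05, and limma with array quality weights called 5 (Trim63, Fbxo32, Fbxo31, Klhl38 and Nedd4) beside 8.21% of all genes.

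Against the same group at 6 weeks 0 ligases were called with all mice, beside 5.85% of all genes, with 1, Trim63, at an unadjusted p under 0.05 in limma (17.8% of all genes were) and in Dunn's test (26.6% were), which called 0 ligases and 0% of all genes. Trim63 was also the 1 ligase wholly above the non-cachectic mice, as 13.6% of all genes were. The count was 1, Trim63, without cachectic mouse 3 of 6 weeks, beside 5.26% of all genes, and 3 without the 4 libraries (Trim63, Fbxo31 and Cblb, all higher), when 27.2% of all genes were called. At 8 weeks limma called 0 with all mice, beside 12.9% of all genes, with 0 at an unadjusted p under 0.05 (25.4% of all genes); Dunn's test called 0 ligases and 4.36% of all genes, with 1 ligase, Cblb, and 22.6% of all genes at an unadjusted p under 0.05. Limma's count was 3 (Trim63, Fbxo31 and Cblb, all higher) without the 4 libraries, beside 33.3% of all genes, and 3 without cachectic mouse 3 of 8 weeks alone, beside 17.8%. In that setting Fbxo31 and Cblb were wholly above the non-cachectic mice, as 9.57% of all genes were.

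Between non-cachectic and control mice, a comparison of a tumor without wasting, limma called 0 ligases at 2, 4, 6 and 8 weeks, and 4.43%, 0%, 0% and 0% of all genes. At an unadjusted p under 0.05 there was 1 at 2 weeks, Fbxo30 (-0.47, adjusted p = 0.314), and 0 at the other weeks; Dunn's test had 0 ligases at both thresholds. The shares of all genes at an unadjusted p under 0.05 were 12.4%, 0.501%, 0.736% and 0.405% in limma and 10.7%, 1.54%, 1.64% and 0.81% in Dunn's test, which called 0%. No ligase was called at any week without the 4 libraries, when 5% of all genes were called at 2 weeks and 0% at the others, and at 2 weeks (14.3% of all genes at an unadjusted p under 0.05) Fbxo30 was -0.31 and no longer at an unadjusted p under 0.05, while Cblb was (0.43, adjusted p = 0.323). At 8 weeks the difference of Trim63 was 0.15 (interval -0.74 to 1.04), that of Fbxo31 -0.06 (interval -1.13 to 1.00) and that of Cblb -0.02 (interval -0.71 to 0.67). Intervals of that width do not show that the groups did not differ.

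Whether the difference between cachectic and control mice changed over time was tested in limma as a difference of differences. From 4 to 6 weeks 0 ligases and 0% of all genes were called, with 0 ligases at an unadjusted p under 0.05 (3.73% of all genes), and Trim63 was 0.50 (interval -0.77 to 1.76). From 6 to 8 weeks 0 ligases and 0% of all genes were called, with 1, Fbxo30, at an unadjusted p under 0.05 (4.27% of all genes), and Trim63 was -0.36 (interval -1.57 to 0.86). Dunn's test has no such contrast. Both counts called were 0 without the 4 libraries, with 0 ligases at an unadjusted p under 0.05 (11.7% and 7.33% of all genes). With array quality weights limma called 1 ligase, Cblb, from 4 to 6 weeks, beside 16.2% of all genes.

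Other genes of the pathway came from lists by function, and their counts are for cachectic against control mice at 8 weeks with all mice, where 6.65% of all genes were higher and 8.12% lower. Of 28 other muscle ligases tested, 0 were higher and 5 lower, with a median log2 fold change of -0.26; the lower ones were Kbtbd13 (-1.11), Trim55 (-1.03), Fbxw7 (-0.95), Fbxl22 (-0.70) and Btrc (-0.60). Klhl41, the most abundant of them, was at 499 ± 109 TPM in cachectic and 497 ± 50.8 in control mice. Of 18 ubiquitin, E1 and E2 genes 4 were higher and 1 lower (Ube2d1, -0.71). Among the higher ones were Ubb (0.94), a polyubiquitin gene and the most abundant of the list, Rps27a (0.78) and Ube2e1 (0.32).

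In the cullin-RING core that the F-box and kelch members work with, 1 of 14 subunits was higher, Cops5 (0.31), and 0 were lower; the SCF adaptor Skp1a was at 168 ± 29.1 TPM in cachectic and 169.6 ± 19.2 in control mice. Of 15 deubiquitinating enzymes 0 were called, and Usp2, the most abundant, differed by -0.03 (adjusted p = 0.979). Among 32 proteasome subunits, which degrade what the ligases mark, 9 were higher and 0 lower, with a median of 0.23 beside -0.09 for all genes. Psma7 rose by 0.58 (adjusted p = 9.16e-05), Psma3 by 0.64 and Psmb1 by 0.64.

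Among 18 transcription factors upstream of the ligases 1 was higher and 1 lower. Cebpd, a stress-induced factor, rose by 2.37, from 6.95 ± 2.61 TPM in controls to 46.9 ± 30.3 in cachectic mice, and Nr3c1, the glucocorticoid receptor, fell by 0.63. Foxo4, the most abundant of this list, differed by -0.47 (adjusted p = 0.391). Of 17 atrophy genes that are not ligases 9 were higher and 1 lower: the metallothioneins Mt2 (5.21) and Mt1 (3.34) rose most by adjusted p, and Pdk4, a kinase that restrains glucose oxidation, fell by 1.24. Of 11 glucocorticoid targets 6 were higher and 1 lower, among them Ddit4 (2.50), an inhibitor of mTOR signaling. Ddit4 and Pdk4 are also in the list of atrophy genes that are not ligases. Cebpd and Klf15 are also in that of transcription factors, so these lists share genes.

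The counts at 8 weeks without the 4 libraries, when 22.2% of all genes were higher and 12.4% lower, were 3 higher and 7 lower of 28 other ligases, 7 and 2 of 18 ubiquitin, E1 and E2 genes, 4 and 0 of 14 cullin-RING subunits and 1 and 1 of 15 deubiquitinating enzymes. In that setting 22 of 32 proteasome subunits were higher and 0 lower, with 6 and 1 of 18 transcription factors, 14 and 1 of 17 atrophy genes that are not ligases, and 9 and 1 of 11 glucocorticoid targets.

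The same lists at 6 weeks, where 5.62% of all genes were higher and 1.17% lower with all mice, gave 0 of 28 other ligases, 4 higher of 18 ubiquitin, E1 and E2 genes, 0 of 14 cullin-RING subunits, 0 of 15 deubiquitinating enzymes and 9 higher of 32 proteasome subunits. Transcription factors had 2 higher of 18 (Cebpd, 1.71, and Stat3, 1.31), atrophy genes that are not ligases 5 higher of 17, and glucocorticoid targets 3 higher of 11, with 0 lower in each. The 6-week counts without the 4 libraries (26.9% of all genes higher, 4.29% lower) were 4 higher and 4 lower of 28 other ligases, 7 and 1 of 18 ubiquitin, E1 and E2 genes, 5 and 0 of 14 cullin-RING subunits, 5 and 0 of 15 deubiquitinating enzymes and 24 and 0 of 32 proteasome subunits. They were 6 of 18 transcription factors, 11 of 17 atrophy genes that are not ligases and 6 of 11 glucocorticoid targets, all higher. Against the members the lists were compared by counts alone, and the difference between lists was not tested. Genes of these lists that are neither the most abundant nor the top of their list by adjusted p were named after their values were seen.

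The diaphragm samples hold other cells than muscle fibers, and in bulk RNA fewer cells of a type and less RNA per cell cannot be told apart. At 8 weeks, against controls, 4 of 8 macrophage markers were higher (Cd163 1.49, C1qb 0.97, C1qa 0.93 and Mrc1 0.91) and 0 lower. Their sum was 281, 769.8 and 1161 TPM at the lowest, median and highest of the cachectic mice and 288, 393 and 586 TPM in controls, most of it Lyz2. Of 4 neutrophil markers tested 2 were higher (S100a8 1.33 and Retnlg 1.16), and their list summed to 9.23, 27.9 and 74.8 TPM in cachectic mice and 4.38, 10.8 and 15.2 in controls, most of it S100a9. Cxcr2, Ly6g and Mmp8 were too low to be tested. The part of these cells in the levels of the ligases was not tested.

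Of 7 markers of fibro-adipogenic cells 1 was higher (Dcn 0.49) and 3 lower (Col1a1 -2.12, Col3a1 -1.89 and Lum -0.89); they summed to 739, 978 and 1861 TPM in cachectic mice and 641, 1120.0 and 1225 in controls, most of it Dcn. Of 7 adipocyte markers 1 was higher (Fabp4 0.69), and their sums were 897, 1569 and 4436 TPM in cachectic mice, the highest in mouse 3, and 655, 801 and 1410 in controls, with Fabp4 the most abundant. Of 7 endothelial markers 1 was lower (Kdr -0.98), and of 10 muscle fiber markers 1 was lower (Mb -0.70). The sum of muscle fiber markers in cachectic mice of 8 weeks was lowest in mouse 3, at 40150 TPM, with a median of 72860, against 58730 to 70830 TPM in controls. Liver markers had 0 of 10 called, mesothelium 0 of 6 and satellite cells 0 of 4. Counts of markers higher and lower without the 4 libraries were 4 and 0 of 8 for macrophages, 4 and 0 of 4 for neutrophils, 1 and 4 of 7 for fibro-adipogenic cells, 1 and 0 of 7 for adipocytes, 1 and 1 of 7 for endothelium, 2 and 1 of 10 for muscle fibers, 1 and 0 of 4 for satellite cells, and 0 for liver and mesothelium. No marker of these lists was at 0 in all cachectic or all control mice of 8 weeks; those named were chosen after their values were seen, and their part in the result was not tested. At 6 weeks 3 of 8 macrophage markers were higher against controls with all mice and 5 without the 4 libraries, with 0 and 2 of 4 for neutrophils and 1 and 1 of 4 for satellite cells; against non-cachectic mice these counts were 2 and 4 for macrophages, 0 and 2 for neutrophils and 1 and 1 for satellite cells. At 8 weeks against non-cachectic mice they were 4 and 4 for macrophages, 2 and 3 for neutrophils and 0 and 1 for satellite cells. Of these lists, 0 markers were lower. Against non-cachectic mice with all mice, 4.28% of all genes were higher and 1.57% lower at 6 weeks, and 6.75% and 6.19% at 8 weeks. Without the 4 libraries these shares were 22.1% and 5.18% at 6 weeks, and 23.2% and 10.2% at 8 weeks. With all mice, other lists at 6 weeks against controls had 1 muscle fiber and 1 fibro-adipogenic marker higher and 1 muscle fiber marker lower, and at 8 weeks against non-cachectic mice 0 higher and 1 muscle fiber, 2 fibro-adipogenic, 1 endothelial and 1 mesothelium marker lower. Without the 4 libraries, at 6 weeks against controls, 3 muscle fiber markers were higher and 1 lower. These counts were 2 and 0 for fibro-adipogenic cells and 2 and 1 for endothelium. At 8 weeks against non-cachectic mice they were 2 and 1, 1 and 3, and 2 and 1, with 0 for mesothelium.

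Genes outside the set whose pattern over the 62 mice was most like that of Trim63, by Pearson's r of log2(TPM + 1), were Fam134b (0.921), Gm15446 (0.908), D230025D16Rik (0.898), Tmem140 (0.896) and Oser1 (0.895). For Fbxo32 they were Ulk1 (0.904), Pim3 (0.899), Pwp1 (0.889), Acss1 (0.888) and Pnrc1 (0.886). Without the 4 libraries that list the fewest genes r stayed between 0.896 and 0.924 for the neighbours of Trim63 and was 0.786 to 0.858 for those of Fbxo32. Ulk1 starts autophagy and Fam134b is a receptor for the autophagy of endoplasmic reticulum. Among the members themselves r over the 62 mice ran from 0.177 (Trim63 with Trim32) to 0.939 (Fbxo31 with Cblb).

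Promoters of all 10 members were looked up; the sequences of Trim63, Fbxo31 and Cblb are printed, a choice made after the results were seen. RefSeq promoters of 300 bases (250 before and 50 after the start, GRCm38.p6) were found for 8 of the 10 members, 10 promoters in all; Fbxo32 and Klhl38 had no entry. On both strands 4 motifs were searched: FoxO (GTAAACA), glucocorticoid receptor (AGAACA, any 3 bases, then TGT), STAT (TTC, any 3 bases, then GAA) and E-box (CAGCTG). They occur in 3.65%, 0.414%, 8.3% and 16.3% of all 32851 promoters. Trim63 held the FoxO motif at bases 57 to 63 and, directly before it and on the same opposite strand, the glucocorticoid motif at bases 45 to 56, and an E-box at bases 179 to 184; these are its capitals, counted from base 1 of the sequence. Fbxo31 and Cblb held none of the 4, which says only that these letters are not in these windows. A match is a description, not a binding site or a cause. The sequences, 5′ to 3′ on the gene's strand, are Trim63 at chr4:134314870-134315169 (plus strand), Fbxo31 at chr8:121578757-121579056 (minus strand) and Cblb at chr16:52031299-52031598 (plus strand).
Trim63: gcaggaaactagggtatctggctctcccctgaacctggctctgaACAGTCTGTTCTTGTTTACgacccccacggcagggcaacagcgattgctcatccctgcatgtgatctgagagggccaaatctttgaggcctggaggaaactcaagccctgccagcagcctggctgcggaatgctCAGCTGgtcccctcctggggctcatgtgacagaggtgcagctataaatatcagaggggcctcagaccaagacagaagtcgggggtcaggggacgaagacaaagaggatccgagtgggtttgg
Fbxo31: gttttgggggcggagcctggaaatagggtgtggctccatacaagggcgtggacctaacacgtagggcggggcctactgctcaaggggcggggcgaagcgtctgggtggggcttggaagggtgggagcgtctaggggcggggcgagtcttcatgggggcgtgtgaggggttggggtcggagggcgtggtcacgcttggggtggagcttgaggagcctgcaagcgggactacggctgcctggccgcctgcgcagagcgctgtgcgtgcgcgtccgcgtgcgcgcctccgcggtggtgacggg
Cblb: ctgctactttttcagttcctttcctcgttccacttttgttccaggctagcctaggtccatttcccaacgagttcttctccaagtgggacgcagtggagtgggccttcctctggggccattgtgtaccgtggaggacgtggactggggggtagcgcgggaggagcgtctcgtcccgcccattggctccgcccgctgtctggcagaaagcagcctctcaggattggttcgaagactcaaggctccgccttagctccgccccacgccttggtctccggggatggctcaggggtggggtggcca
Of the other members, the E-box was in promoters of Trim32, Nedd4 and Fbxo40, and the STAT motif in 1 of the promoters of Nedd4.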

How the data were processed

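RNA of the diaphragm of 62 mice was sequenced, with 1 library per mouse, in 12 conditions (cachectic, non-cachectic and control mice at 2, 4, 6 and 8 weeks). The authors aligned reads to mm10 and deposited TPM, which were used as given. Read depth, and so the precision it gives, is unknown. The 10 members and the lists were chosen with earlier results of these data known. A gene was tested at 1 TPM or more in at least 5 mice, which left 13578 of 47643 genes. Values were analyzed as log2(TPM + 1) with limma 3.58.1 (R 4.3.3), with a mean per condition and eBayes with trend, in 12 pairwise comparisons and 2 contrasts of differences. P values were adjusted by Benjamini and Hochberg over all genes tested, and an adjusted p under 0.05 was a call. Python 3.11.15, scipy 1.17.1 and matplotlib 3.10.9 were used for the rest, and the code was tested on simulated data.

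Genes are named by a rule: all 10 members; from each pathway list the 2 genes with the smallest adjusted p among those called between cachectic and control mice at 8 weeks, and the gene of highest mean TPM; and for Trim63 and Fbxo32 the 5 genes tested with the highest Pearson r. Other list genes, and markers of cell types, were named outside this rule, after their values were seen. Coordinates are from GENCODE vM21 and promoters from RefSeq on GRCm38.p6.

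The counts of called members in all 14 contrasts, and the members' log2 fold changes of cachectic mice at 6 and 8 weeks, were computed again with no filter on low values, with 0.1 as the pseudocount, with median-ratio scaling, quantile normalization, without mitochondrial genes in the total, with array quality weights, a block for the replicate number, Dunn's test (pairwise comparisons only), only the groups compared, leaving out the 4 libraries that list the fewest genes or the 4 with liver transcripts, and leaving out each library of the groups compared in turn. Lists and markers were counted again only without the 4 libraries that list the fewest genes. No library was left out of the results with all mice.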

Additional observations from a re-analysis of the deposited data

Results flagged for a closer look

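In each of 120 groups (10 ligases in 12 conditions) the mouse farthest from the others was compared with the spread of its group, a comparison that picks about 1 in 20 groups by chance; it picked 16. In TPM, non-cachectic mouse 5 of 2 weeks was the lowest of its group for Trim63 (54.09), Fbxo31 (16.97), Fbxo40 (40.64), Trim32 (3.33) and Cblb (2.045). Cachectic mouse 3 of 8 weeks was the lowest of its group for Fbxo21 (1.561), Nedd4 (20.8) and Cblb (1.411). Both are among the 4 libraries that list the fewest genes.

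Cachectic mouse 2 of 4 weeks was the highest of its group for Trim63 (351.1 TPM) and Fbxo32 (352.8 TPM). Non-cachectic mouse 1 of 6 weeks was the highest for Fbxo31 (122.6 TPM) and Klhl38 (104.7 TPM). Trim63 was highest in control mouse 1 of 6 weeks (154.2 TPM), and Fbxo40 in control mouse 2 of 4 weeks (173.0 TPM). Fbxo21 was lowest in non-cachectic mouse 4 of 4 weeks (6.66 TPM), and Trim32 in control mouse 1 of 8 weeks (6.276 TPM).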

How the results depend on the processing

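Of 880 values of 40 log2 fold changes of the ligases under the alternatives, 783 kept their direction and their side of the threshold, 58 kept their direction and were newly called, and 39 reversed. These are cachectic against control and against non-cachectic mice at 6 and 8 weeks; other folds were not recomputed under every alternative. Some alternatives leave a fold as it was, such as Dunn's test, no filter on low values and, at 6 weeks, leaving out the 4 libraries. Values from them could not reverse, so the number that kept their direction does not measure stability. Percentages in parentheses are the shares of all genes called in the same fit. A pseudocount of 0.1 changed no count of called ligases. Where a value below differs from that with all mice, the cause was not tested.

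The number of ligases called between cachectic and control mice at 2 weeks was 2 with all mice. It was 1 (14.1%) with no filter on low values, and 0 with median-ratio scaling (17.6%) and array quality weights (1.13%). Dunn's test, which was simulated only for 8 weeks, and a fit of only the groups compared gave 0 with 0% of all genes. So did leaving out the 4 libraries that list the fewest genes, or the 4 with liver transcripts. All other counts were 0 with all mice. Median-ratio scaling gave 2 (24.1%; Trim63 higher, Trim32 lower) at 8 weeks against controls, and against non-cachectic mice 1 (7.66%; Trim63 higher) at 6 and 1 (21.6%; Trim32 lower) at 8 weeks. Quantile normalization gave 2 (25.3%; Cblb higher, Trim32 lower) at 8 weeks against controls and 3 (22.3%; Cblb higher, Fbxo21 and Trim32 lower) against non-cachectic mice. A total without mitochondrial genes gave 1 (25.7%) and 1 (21.8%) in these, Trim32 lower. Array quality weights gave 3 (7.87%), 6 (48.4%) and 3 (36.2%) at 4, 6 and 8 weeks against controls, 5 (8.21%), 4 (40.6%) and 4 (40.9%) against non-cachectic mice, and 1 (16.2%) for the change from 4 to 6 weeks. Only the groups compared gave 5 (29.7%) at 6 weeks against controls and 3 (24.3%) against non-cachectic mice. Without the 4 libraries that list the fewest genes the counts were 4 (31.2%) and 3 (34.6%) at 6 and 8 weeks against controls and 3 (27.2%) and 3 (33.3%) against non-cachectic mice. With each library left out in turn the count ran from 0 to 4 at 2 weeks and 0 to 3 at 8 weeks against controls, and from 0 to 1 at 6 weeks and 0 to 3 at 8 weeks against non-cachectic mice. The highest counts at 8 weeks came without cachectic mouse 3, beside 18.7% of all genes against controls and 17.8% against non-cachectic mice. Shares for the highest counts at 2 and 6 weeks stand with the results above. The share of all genes is not given for every such fit.

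Log2 fold changes that reversed follow. At 6 weeks Fbxo40 was -0.0561 against controls and -0.0049 against non-cachectic mice with median-ratio scaling, -0.0354 and -0.0184 with quantile normalization, and -0.0326 and -0.0089 without mitochondrial genes in the total. Fbxo30 against non-cachectic mice at 8 weeks was 0.0658 with median-ratio scaling, 0.0359 with quantile normalization and 0.1162 without the 4 libraries that list the fewest genes. Fbxo32 against controls at 8 weeks was -0.0019 without mitochondrial genes in the total. With array quality weights, at 8 weeks, Fbxo40 was 0.0075 against controls and 0.042 against non-cachectic mice, Nedd4 was 0.1465 and 0.1858 (the latter called), and Trim32 was 0.0027 against non-cachectic mice. Without the 4 libraries that list the fewest genes, at 8 weeks, Klhl38 was 0.123 and 0.0935, Fbxo40 0.0871 and 0.0641, and Nedd4 0.1329 and 0.1309. Trim32 at 6 weeks against controls was 0.0134 without the 4 libraries with liver transcripts.

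With each library left out in turn, at 8 weeks against controls, Fbxo32 ran from -0.2578 to 0.61, Klhl38 from -0.415 to 0.123, Fbxo40 from -0.4199 to 0.0871 and Nedd4 from -0.2896 to 0.1329. Against non-cachectic mice Fbxo32 ran from -0.2369 to 0.631, Klhl38 from -0.4445 to 0.0935, Fbxo40 from -0.4429 to 0.0641, Nedd4 from -0.2916 to 0.1309 and Fbxo30 from -0.1887 to 0.1162. Trim32 at 6 weeks against controls ran from -0.1201 to 0.0134.

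The replicate block called 1 ligase, Trim63, at 6 weeks against controls (6.86%) and 1, Trim63, against non-cachectic mice (5.77%), and Fbxo32 at 8 weeks was -0.208 and -0.1871. As a check, deviations of the genes tested from their condition means were correlated between mice with the same number; in 12 comparisons r ran from -0.633 to 0.387, and in 0 of them was it over 0.1 in every pair, so the numbers do not pair the mice.

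With 5 mice in most groups and wide spreads in the cachectic mice, a result that was not called does not show that groups did not differ. TPM sum to a fixed total, so a large share of mitochondrial transcripts lowers all others. Read depth is unknown, so its limit on the ligases of low level cannot be given. Transcript levels do not measure ligase protein or activity, and bulk tissue does not tell which cells hold them.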
